A study of Mus musculus with 2 samples.

Results

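Monocytes, macrophages and microglia of the mouse retina were examined in 95 cells, 33 from a knockout library and 62 from a control library, out of 12936 retinal cells that passed the study's filter of at least 500 detected genes and under 25% mitochondrial RNA. These mononuclear phagocytes were chosen from the measured RNA itself. Each had at least 2000 unique molecular identifiers (UMIs, one per captured RNA molecule), at least 3 UMIs of Tyrobp, an adaptor of myeloid receptors, and at least 1 UMI of 3 or more of 8 genes, Csf1r, Ms4a7, Ccr2, F13a1, Fcgr1, Ms4a6c, Adgre1 and C1qa. Each also had at most 2 UMIs of the neutrophil genes Csf3r, Cxcr2 and Retnlg together and under 0.1% of its UMIs from the Müller glia genes Rlbp1, Glul, Slc1a3, Dkk3 and Crym. The levels of those genes are therefore a description of the choice and not a result.

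The study asked how autophagy in Müller glia, the main support cells of the retina, bears on inflammation. Both groups of mice carried floxed Atg5 alleles (Atg5fl/fl), both received LPS, a bacterial outer membrane component that activates innate immunity, at 0.5 µg per eye into the vitreous, and both gave 1 single-cell library made from 6 pooled retinas with droplet 3′ chemistry. In the knockout group (GLAST-CreER; Atg5fl/fl) the mice also carried a tamoxifen-dependent Cre recombinase driven by the promoter of Slc1a3 (GLAST), which is active in Müller glia, and were given 4-hydroxy-tamoxifen. The labels name neither the Cre nor the drug for the control group, so the loss of Atg5, the Cre and the drug cannot be told apart. With 1 library in each group there is no replicate check and no test was made. Intervals given with levels, ratios and shares are 95% intervals that cover counting error only, not the spread between mice.

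Mononuclear phagocytes are the monocytes, macrophages, microglia and dendritic cells. Microglia live in the retina from early development, while monocytes enter it from the blood during inflammation and can become macrophages or dendritic cell-like antigen presenters. Toll-like receptor 4 on these cells binds LPS and signals through NF-κB to cytokine and chemokine genes, and through interferon regulatory factors to type I interferon, which acts back on the cells through factors that include STAT2 and IRF9.

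The mononuclear phagocytes held 808074 UMIs in the knockout library and 1477492 UMIs in the control library, with a median of 20158 and 21822 UMIs per cell. The shallowest knockout cell had 11062 UMIs and the shallowest control cell 2375. The whole libraries held 50676223 and 43669961 UMIs over 5229 and 8690 barcodes. The libraries shared 15 barcodes, none of them on a mononuclear phagocyte. Each library held cells with the X-inactivation RNA Xist and no Y-linked RNA (7 in the knockout, 22 in the control) and cells with Y-linked RNA and no Xist (25 and 31), so each pool held retinas of both sexes. At the edges of the choice, 3 knockout and 8 control cells had exactly 3 of the 8 marker genes, and 5 and 9 cells were left out with 2 of them. For the neutrophil genes, 8 knockout and 19 control cells were kept with 2 UMIs, and 8 and 13 were left out with 3 or 4.

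The cells made up 0.708% of the knockout library's filtered cells (0.488 to 0.993) and 0.749% of the control library's (0.575 to 0.960), shares that differed by less than their counting intervals. The 2 libraries differed in how many shallow barcodes they held, and among cells with at least 2000 UMIs the shares were 0.938% in the knockout and 2.09% in the control. Against neutrophils, the first blood cells to enter an inflamed tissue, there were 23.9 mononuclear phagocytes per 100 neutrophils in the knockout (138 neutrophils) and 35.2 per 100 in the control (176 neutrophils). The knockout value was the lower one by all 3 measures, by margins of different size, and the part of tissue dissociation and droplet capture in them was not tested.

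Genes of monocytes were found in most of the cells. Csf1r, Ms4a6c and Ccr2 belong to the rule that chose the cells and are given as a description. Csf1r, the receptor for the macrophage growth factor CSF1, was found in 33 of 33 knockout and 60 of 62 control cells, at 407 CPM in the knockout and 454 CPM in the control, given as CPM, the UMIs summed over the cells and scaled to the same total in each library. Ms4a6c, a membrane protein of monocytes and macrophages, was at 801 against 803 CPM, and Ccr2, the chemokine receptor that brings monocytes out of the bone marrow, at 214 against 259.9 CPM (26 of 33 and 41 of 62 cells). Plac8, abundant in blood monocytes but also in neutrophils, was found in 31 and 53 cells. Ly6c2, the surface antigen of classical monocytes, was found in 26 and 44 cells. Neither gene tells monocytes from neutrophils here by its presence alone, since Ly6c2 had a UMI in 44.2% of knockout and 42.6% of control neutrophils and Plac8 in 82.6% of knockout and 85.2% of control neutrophils. In summed level Ly6c2 was at 409.6 against 727 CPM in the mononuclear phagocytes and 219 against 180.1 CPM in neutrophils. In Müller glia, which should lack these genes and had median depths of 20221 and 17349 UMIs, few cells had a UMI of them: Ccr2 was found in 0% of knockout and 0.356% of control Müller cells, Ly6c2 in 0.522% of knockout and 1.42% of control and Plac8 in 3.13% of knockout and 6.05% of control.

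Genes that mark resident microglia were scarce. Gpr34, a lysophosphatidylserine receptor, had 0 UMIs in either library, which allows up to 3.71 CPM in the knockout and 2.03 CPM in the control. Sall1, the microglial identity factor, had 1 UMI in each, and Siglech, a sialic acid-binding lectin, 1 in the knockout and 4 in the control. P2ry12, the purine receptor of surveying microglia, had 13 and 19 UMIs, and Tmem119, a microglial surface protein, 13 and 37. Cells with at least 3 UMIs over these genes, Fcrls and Olfml3 numbered 4 of 33 in the knockout (12.1%) and 11 of 62 in the control (17.7%). Of the 4 in the knockout, all had 5 such UMIs. A single P2ry12 UMI is weak evidence of a microglial cell here, since 9.14% of knockout and 14.6% of control Müller glia had one. Cx3cr1, the fractalkine receptor shared by microglia and patrolling monocytes, was at 95.3 against 73.8 CPM in 16 and 21 cells. Inflammation is known to lower the homeostatic genes of microglia. The cells were therefore not divided into microglia and monocyte-derived macrophages, and the values below are for all of them together unless stated.

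**Figure D1:**
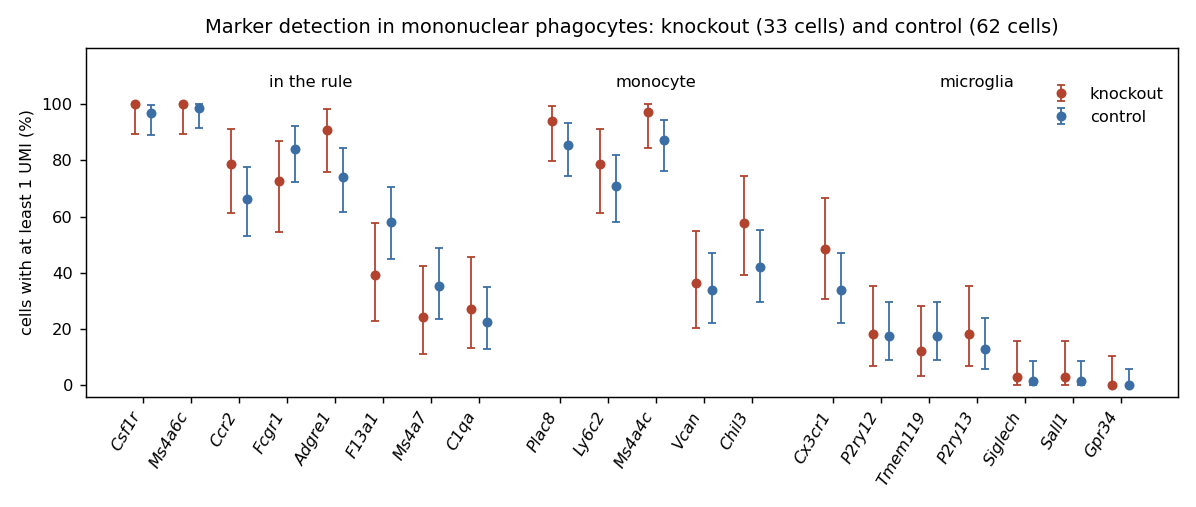
Percentage of knockout cells (33) and control cells (62) with at least 1 UMI of each marker gene, grouped by the cell type the gene marks; points are knockout (left) and control (right) for each gene, and error bars are exact binomial 95% intervals. Csf1r, Ms4a6c, Ccr2, Plac8 and Ly6c2 were found in most cells of both libraries, F13a1, Ms4a7, C1qa and Vcan in a smaller share, and P2ry12, Tmem119, Siglech and Sall1 in few.

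RNA of other blood and retinal cell types was counted in the same cells. Lyve1 and Cd209f, of macrophages around vessels, had 0 UMIs in both libraries, as did the B cell genes Cd79a and Ms4a1. The 15 neutrophil genes summed to 465 CPM in the knockout cells and 763 CPM in the control cells, beside 135980 CPM in knockout and 111048 CPM in control neutrophils. Rod photoreceptor RNA, the main free RNA of a dissociated retina, summed to 103 CPM in the knockout and 476 CPM in the control over 10 genes. The 12 Müller glia genes summed to 1589 CPM in the knockout and 4697 CPM in the control, beside 4441 and 4332 CPM in all other cells. Most of that sum was Vim (1108 against 1464 CPM), an intermediate filament gene, and Apoe (379.9 against 3147 CPM), both also known from macrophages, while Car14 was at 0 in both libraries. The 7 cone genes summed to 616 CPM in the knockout and 456 CPM in the control, beside 475 and 641 CPM in all other cells. Of those cone UMIs 491 in the knockout and 660 in the control were of Gngt2, a G protein γ subunit gene, and Pde6c was at 0 in both. Pericyte genes summed to 311 CPM in the knockout and 13.5 CPM in the control, beside 86.7 and 118 CPM in all other cells. Vessel RNA (Cldn5, Cdh5, Flt1 and Egfl7) reached at least 10 UMIs in 2 knockout cells and 1 control cell, 1 knockout cell held 2763 haemoglobin UMIs, and bipolar or amacrine cell RNA reached 10 UMIs in 0 knockout and 2 control cells. Together these were 3 knockout and 2 control cells, and without them 9 pericyte gene UMIs were left of 251 in the knockout and 9 of 20 in the control. They held 89909, 43805 and 19481 of the knockout's 808074 UMIs, and 68644 and 4085 of the control's 1477492 UMIs. Their RNA is in the totals behind every CPM of all cells, and is a larger part of the knockout total. Without them the ratio of Maf was 0.519 in place of 0.454 and that of Timp1 0.479 in place of 0.425. Icam1 moved the other way, to 1.13 in place of 1.68. For the 146 genes named by rule with at least 50 UMIs, results past 1.5-fold that lie on the other side of 1 without these cells are given both ways. Most further genes chosen from the lists were not looked at without these cells.

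The cells were not all alike, and overlapping ranges of them were counted by a few genes. Treml4, a receptor of non-classical, patrolling monocytes that is also made by neutrophils, had at least 3 UMIs in 17 of 33 knockout cells (51.5%) and 12 of 62 control cells (19.4%). Its summed level was 156 against 77.2 CPM, a ratio of 2.02 (1.56 to 2.63) of knockout over control. With every cell thinned to 10000 UMIs, which leaves out 6 control cells and no knockout cell, 54.5% of knockout cells (36.4 to 71.9) and 30.4% of control cells (18.8 to 44.1) had a Treml4 UMI, and these intervals overlap. In Müller glia 0.261% of knockout and 0% of control cells had one. In neutrophils Treml4 lay the other way, at 71.3 against 119 CPM.

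Ly6c2 was found at a like share of thinned cells, 63.6% in the knockout and 66.1% in the control, but at a lower summed level of 409.6 against 727 CPM, ratio 0.564 (0.497 to 0.638). Classical and non-classical genes often met in one cell, since 12 knockout and 6 control cells had at least 3 UMIs of both Ly6c2 and Treml4. RNA of the C1q genes, the recognition subunits of complement C1 made by macrophages and microglia, of which C1qa is a gene of the rule, reached at least 5 UMIs in 15 knockout cells (45.5%) and 16 control cells (25.8%), and in thinned cells 45.5% (28.1 to 63.6) and 21.4% (11.6 to 34.4) had any. In Müller glia C1qb had a UMI in 0.261% of knockout and 0.356% of control cells. Arg1, which breaks down arginine in macrophages of wound healing, reached at least 10 UMIs in 8 knockout cells (24.2%) and 20 control cells (32.3%). No cell of either library was both in this Arg1-rich range and in the Treml4 range, and 5 knockout and 17 control Arg1-rich cells were in the Ly6c2 range. Cells rich in class II genes, described below, numbered 5 and 17. With 33 and 62 cells the binomial intervals of these shares are wide: those of the unthinned Treml4 share run from 33.5 to 69.2% in the knockout and from 10.4 to 31.4% in the control, while those of the unthinned C1q share run from 28.1 to 63.6% and from 15.5 to 38.5%.

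The 4 microglia-marked knockout cells held 355 of the knockout's 540 Ccl3 UMIs and 441 of its 731 Ccl4 UMIs. All 4 had at least 5 C1q UMIs, none was Arg1-rich, and 1 was in the Ly6c2 range. Both chemokines attract monocytes and T cells. Set beside the 11 microglia-marked control cells, Ccl3 was at 4742 against 296 CPM, Ccl4 at 5891 against 199 CPM, Cx3cr1 at 548 against 141 CPM and Nos2, the inducible nitric oxide synthase, at 882 against 154 CPM. Over all mononuclear phagocytes Ccl3 was at 668 against 369.5 CPM, ratio 1.81 (1.60 to 2.04) and Ccl4 at 905 against 445 CPM, ratio 2.03 (1.83 to 2.26). Without the microglia-marked cells both lay below 1, Ccl3 at 252 against 389 CPM and Ccl4 at 396 against 510.2 CPM. Both marked sets were mixed. In the control 7 of 11 were in the Ly6c2 range and 5 of 11 were rich in class II genes. In the 4 knockout cells the monocyte gene Plac8 was at 2267, 1934, 57.7 and 0 CPM. Chil3, another monocyte gene, was at 6570, 1209, 0 and 0 CPM in the same order.

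Gene by gene, knockout and control were compared over the 5966 genes with at least 50 UMIs in the cells of both libraries together. A gene was counted when its CPM ratio was at least 1.5 in either direction, which held for 18.5% of genes: 519 were higher in the knockout (8.7%) and 583 lower (9.77%). The median log2 ratio over all these genes was 0.06. In 20 of 24 gene lists more genes were lower than higher, and the lists furthest below the background were those of interferon. The shares of all genes are the background for every list count below.

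**Figure D2:**
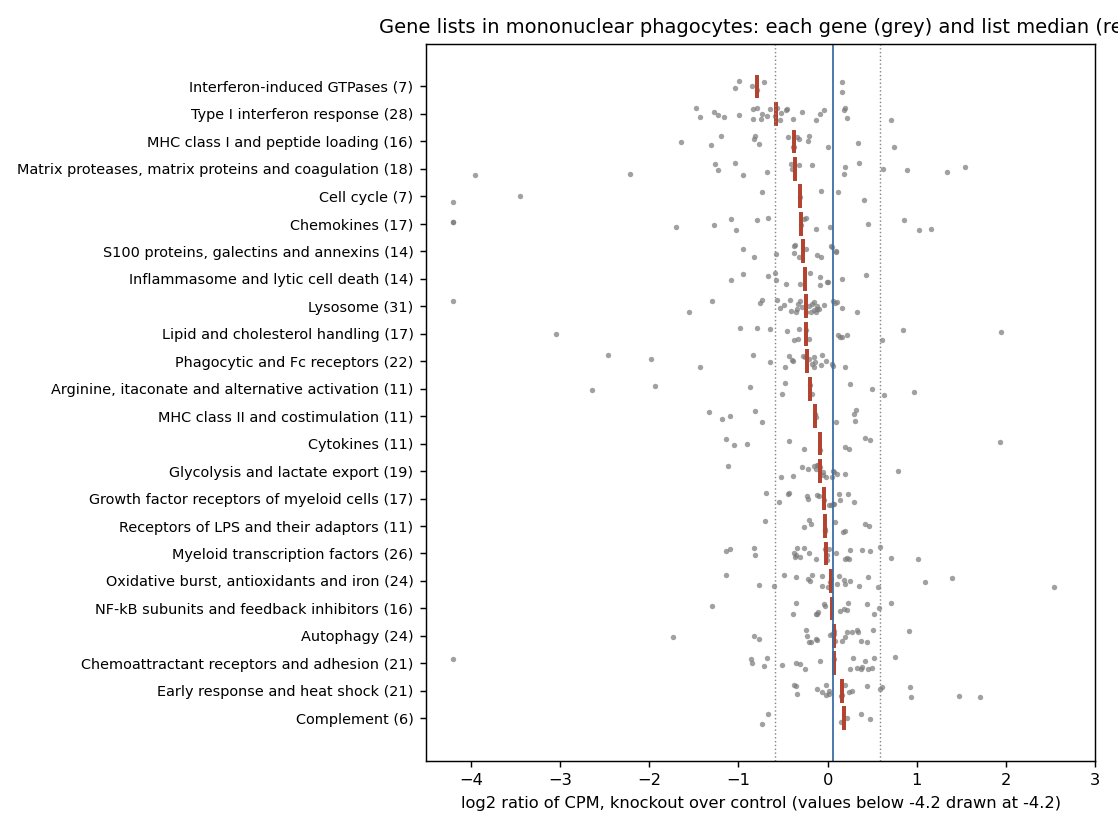
Log2 ratio of CPM, knockout over control, for each gene with at least 50 UMIs in 24 gene lists (grey points), with the list's median (red). The type I interferon list (median -0.58) and the interferon-induced GTPases (-0.79) lay lowest, and all genes together had a median of 0.06.

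Of the 28 measured genes of the type I interferon response, 14 were at least 1.5-fold lower in the knockout, 1 was higher and 13 lay between, with a median log2 ratio of -0.58. For all genes the share lower was 9.77%. Transcription factor genes of the response were among the lower ones. Stat2, a signal transducer of the type I interferon receptor, had 23 UMIs in 13 of 33 knockout cells, at 28.5 CPM (18.0 to 42.7), and 115 UMIs in 38 of 62 control cells, at 77.8 CPM (64.3 to 93.4), a ratio of 0.366 (0.223 to 0.576). Irf9, the DNA-binding subunit of its complex, was at 47.0 against 79.9 CPM, ratio 0.589 (0.397 to 0.855). Irf7, which amplifies type I interferon production, was nearer to 1 at 368 against 449 CPM, ratio 0.818 (0.711 to 0.939).

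Antiviral effectors lay on the same side. Rsad2, which makes the chain-terminating nucleotide ddhCTP, was at 52.0 against 118 CPM, ratio 0.441 (0.307 to 0.621). Oas3, a sensor that makes 2′-5′ oligoadenylate from double-stranded RNA, was at 29.7 against 73.1 CPM, ratio 0.406 (0.250 to 0.637), and Ifit3, which binds foreign RNA together with other IFIT proteins, at 34.7 against 82.6 CPM, ratio 0.420 (0.268 to 0.637). Isg15, a ubiquitin-like modifier, was at 226 against 379 CPM, ratio 0.597 (0.503 to 0.707), and Usp18, which removes it and damps receptor signalling, at 35.9 against 72.4 CPM, ratio 0.496. Ifi204, a DNA sensor of the AIM2-like family, was at 167 against 298 CPM, ratio 0.560, whereas its neighbour in that family Ifi205 was the one gene past the fold the other way, at 299 against 183 CPM, ratio 1.63 (1.37 to 1.95). Members of this family resemble each other in sequence, so reads may be shared or lost between them. Without the 5 cells that held most of its UMIs, Ifi205 lay at 0.774. Ifit1 (87.9 against 96.8 CPM) and the restriction factor Bst2 (471 against 619 CPM) lay between the bounds.

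**Figure D3:**
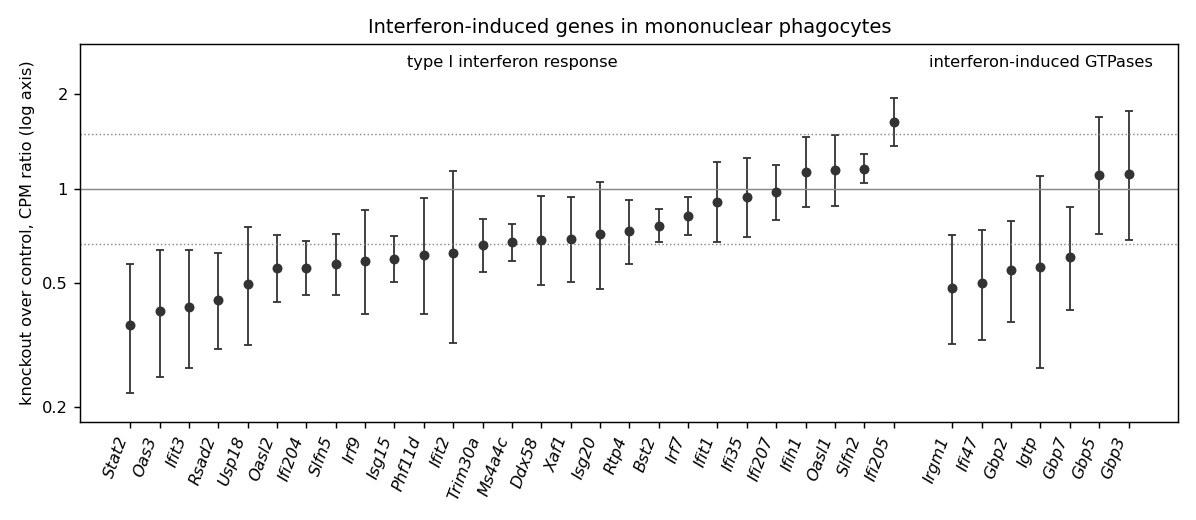
CPM ratio of knockout over control on a log axis for measured genes of the type I interferon response and the interferon-induced GTPases, with the exact 95% interval of each ratio for counting error; dotted lines mark 1.5-fold in either direction. Most points lie below 1, from Stat2 at 0.366 upward, and Ifi205 lies at 1.63.

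Of 7 measured interferon-induced GTPases, which attack the vacuoles of intracellular microbes, 5 were lower and 0 higher (median -0.79). Irgm1, a regulator of the family, was at 40.8 against 84.6 CPM, ratio 0.483 (0.318 to 0.713), Ifi47 at 40.8 against 81.9 CPM, ratio 0.499 and Gbp2, a guanylate-binding protein, at a ratio of 0.550, while Gbp3 (1.11) and Gbp5 (1.11) lay just above 1. Counts were low, and the count of lower genes was 2 without the microglia-marked cells and 8 of more genes at a minimum of 20 UMIs.

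The complex that holds STAT2 and IRF9 binds the interferon-stimulated response element, whose core repeats the letters GAAA. To show the sequence these genes share, the promoters below are the 250 bases before the annotated start of Stat2, Oas3, Ifit3, Rsad2 and Irgm1, the 5 lowest genes of the 2 interferon lists that hold the letters GAAANNGAAA on either strand, from RefSeq on GRCm38.p6 in the direction of the gene. Capitals mark each match, which reads TTTCNNTTTC when it lies on the other strand; in Irgm1 a pair of matches overlaps.
Stat2 (chr10:128270248-128270497, plus strand): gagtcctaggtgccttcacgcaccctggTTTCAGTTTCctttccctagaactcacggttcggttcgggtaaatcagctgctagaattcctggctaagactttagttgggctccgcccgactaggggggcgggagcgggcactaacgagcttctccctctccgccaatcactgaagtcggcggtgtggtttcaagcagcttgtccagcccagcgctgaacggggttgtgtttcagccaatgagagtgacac
Oas3 (chr5:120777660-120777909, minus strand): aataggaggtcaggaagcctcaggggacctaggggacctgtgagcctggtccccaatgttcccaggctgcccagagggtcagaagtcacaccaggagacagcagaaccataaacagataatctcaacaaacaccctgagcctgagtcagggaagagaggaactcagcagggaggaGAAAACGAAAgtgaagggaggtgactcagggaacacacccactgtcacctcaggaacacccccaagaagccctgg
Ifit3 (chr19:34583279-34583528, plus strand): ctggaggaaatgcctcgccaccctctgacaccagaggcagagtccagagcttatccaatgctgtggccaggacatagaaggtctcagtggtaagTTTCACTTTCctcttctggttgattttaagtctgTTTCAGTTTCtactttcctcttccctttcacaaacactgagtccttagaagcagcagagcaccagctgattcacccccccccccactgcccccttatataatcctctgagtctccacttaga
Rsad2 (chr12:26456453-26456702, minus strand): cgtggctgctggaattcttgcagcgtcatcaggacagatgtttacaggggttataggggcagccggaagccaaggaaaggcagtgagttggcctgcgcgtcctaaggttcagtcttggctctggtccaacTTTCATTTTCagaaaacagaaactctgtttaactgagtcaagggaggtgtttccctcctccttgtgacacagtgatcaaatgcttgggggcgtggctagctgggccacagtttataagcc
Irgm1 (chr11:48871421-48871670, minus strand): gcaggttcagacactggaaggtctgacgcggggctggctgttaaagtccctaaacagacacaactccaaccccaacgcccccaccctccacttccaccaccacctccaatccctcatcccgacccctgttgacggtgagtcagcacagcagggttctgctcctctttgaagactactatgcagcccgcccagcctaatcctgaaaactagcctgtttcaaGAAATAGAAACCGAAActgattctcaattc
The search for these letters left out 1 chromosome. They were present in 978 of the 32851 windows searched (2.98%), in 193 of 4803 measured genes with a searched window (4.02%) and in 17 of the 31 measured interferon-list genes with a searched window (54.8%). Of the 17 interferon-list genes with the letters, 11 were lower and 1 higher (median log2 ratio -0.74), and of the 14 without, 5 were lower and 0 higher (-0.53). Outside the interferon lists, 176 genes held the letters, of which 28 were lower (15.9%) and 11 higher, against 430 lower (9.33%) and 394 higher among the 4610 genes without them. A match of these letters describes the sequence and does not show that a factor was bound.

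The interferon difference was not even over the kinds of cell. Summed over the 28 type I genes, the median cell stood at 3880 CPM in the knockout (quartiles 2712 and 6568) and 5753 CPM in the control (3607 and 7916), so the 2 distributions overlapped widely. Among Arg1-rich cells (8 knockout, 20 control) 24 of the 28 genes were lower and 1 higher, and among the rest (25 and 42 cells) 9 were lower and 3 higher. In the Treml4 range (17 and 12 cells) 7 were lower and 8 higher, and the sum of the 28 was higher in the knockout, at 5272 against 4497 CPM. In the cells outside it (16 and 50) 22 were lower and 0 higher, with a sum of 3206 against 5974 CPM. Isg15 shows the contrast: in the Treml4 range it was at 300.1 against 232 CPM, and outside it at 144 against 419.6 CPM. Rsad2 in Arg1-rich cells was at 8.51 against 109 CPM, and in the others at 69.8 against 123 CPM. In class II-rich cells (5 and 17) 11 of the 28 were lower and 4 higher, but the sum was 6963 against 5651 CPM. In the cells outside that range (28 and 45) 15 were lower and 0 higher, with a sum of 3950 against 5657 CPM. These ranges were set after the values were seen, and a cell can be in several.

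Neutrophils and Müller glia of the same libraries were compared in the same way. In neutrophils 4 of 28 type I genes were lower and 0 higher, with a median of -0.28 beside -0.08 for all genes there, of which 16.7% were lower and 7.62% higher. In Müller glia 7 of 26 were lower and 0 higher, with a median of -0.16 that equals the -0.16 of all genes there (19.8% lower, 5.89% higher). Ifit3 was at 504 against 425 CPM in Müller glia and 143 against 227 CPM in neutrophils. The GTPases were lower in each, 7 of 7 in neutrophils (median -1.06) and 5 of 13 in Müller glia (-0.41). The difference between cell types was not tested.

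Other interferon regulators lay on the same side. Irf1, the factor of the interferon-γ response, was at 49.5 against 107 CPM, ratio 0.463 (0.319 to 0.658), at 61.7 against 111 CPM in neutrophils and at 97.8 against 180.2 CPM in Müller glia. Irf8, which directs monocyte and dendritic cell development, was at 74.3 against 132 CPM, ratio 0.563 (0.414 to 0.755). The receptor subunits of type I interferon, Ifnar1 (76.7 against 112 CPM, ratio 0.683) and Ifnar2 (229 against 309 CPM, ratio 0.740), lay between the bounds. RNA of interferon-β itself, Ifnb1, had 0 UMIs in the knockout and 0 in the control, too few to compare.

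Class I antigen presentation, through which all nucleated cells show peptides to CD8 T cells, had 6 of 16 measured genes lower and 1 higher (median -0.38). The non-classical class I genes H2-Q6 (42.1 against 133 CPM, ratio 0.316) and H2-Q7 (137 against 342 CPM, ratio 0.401, 0.324 to 0.493) were lowest, and as near-identical copies they may share reads. Nlrc5, the transactivator of class I genes, was at 16.1 against 37.9 CPM, ratio 0.424, Tap1, a subunit of the peptide transporter, at 56.9 against 102 CPM, ratio 0.561, and the immunoproteasome subunit Psmb9 at 90.3 against 155 CPM, ratio 0.583. The most abundant, B2m, the light chain of class I, was at 2709 against 3153 CPM, ratio 0.859 (0.816 to 0.904), and H2-D1 at 0.766. Erap1, which trims peptides, was higher at 1.68, but 0.897 without the 5 cells that held most of it.

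Class II genes, which present peptides to CD4 T cells, were lower in sum. H2-Ab1, a class II β chain, had 513 UMIs in 14 knockout cells and 2355 in 35 control cells, or 635 against 1594 CPM, a ratio of 0.398 (0.361 to 0.438). Cd74, the invariant chain that guides class II, was at 1546 against 3526 CPM, ratio 0.438 (0.412 to 0.466), H2-Aa at 610.1 against 1305 CPM, ratio 0.468 and H2-Eb1 at 669 against 1119 CPM, ratio 0.598. Of the 11 measured genes of class II and costimulation 5 were lower and 0 higher, and the costimulators Cd40 (1.24), Cd80 (1.24) and Cd86 (0.904) lay near 1.

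Nearly all class II RNA lay in a few class II-rich cells. Cells with at least 50 class II UMIs numbered 5 of 33 in the knockout (15.2%, 5.11 to 31.9) and 17 of 62 in the control (27.4%, 16.9 to 40.2), and they held 94.8% and 98.1% of all class II UMIs. A gap in UMIs set them apart: the lowest had 181 UMIs in the knockout and 62 in the control, and the highest of the remaining cells 32 and 23. In CPM the control cells overlapped, with a rich cell at 2773 CPM and a remaining cell of 2375 UMIs at 9684 CPM. Inside the rich cells H2-Ab1 was at 5209 against 5268 CPM, Cd74 at 12365 against 11468 CPM and H2-Aa at 5155 against 4344 CPM. H2-Eb1 was higher in the knockout's rich cells, at 5801 against 3727 CPM, ratio 1.56 (1.41 to 1.72). The shares of rich cells have intervals that overlap. An H2-Ab1 UMI was found in 7.31% of knockout and 15.7% of control Müller glia, where free RNA and expression by the glia cannot be told apart.

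Some of the class II-rich cells carried dendritic cell RNA. At least 3 UMIs of Cd209a, Flt3 or Ccr7 were found in 1 knockout and 7 control cells, each of them class II-rich. Ccr7, the receptor that takes dendritic cells to lymph nodes, had 1 UMI in the knockout and 71 in the control, and Cd209a, a lectin of monocyte-derived dendritic cells, 1 and 70. Ccl22 and Ccl17, chemokines of mature dendritic cells, had 0 UMIs in the knockout and 74 and 51 in the control. By UMI counting alone that is at least 13.5-fold and 9.30-fold lower in the knockout, against a floor of 3 UMIs. These bounds do not cover how many dendritic cells each library caught. Class II-rich cells with no such dendritic RNA numbered 4 in the knockout and 10 in the control.

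**Figure D4:**
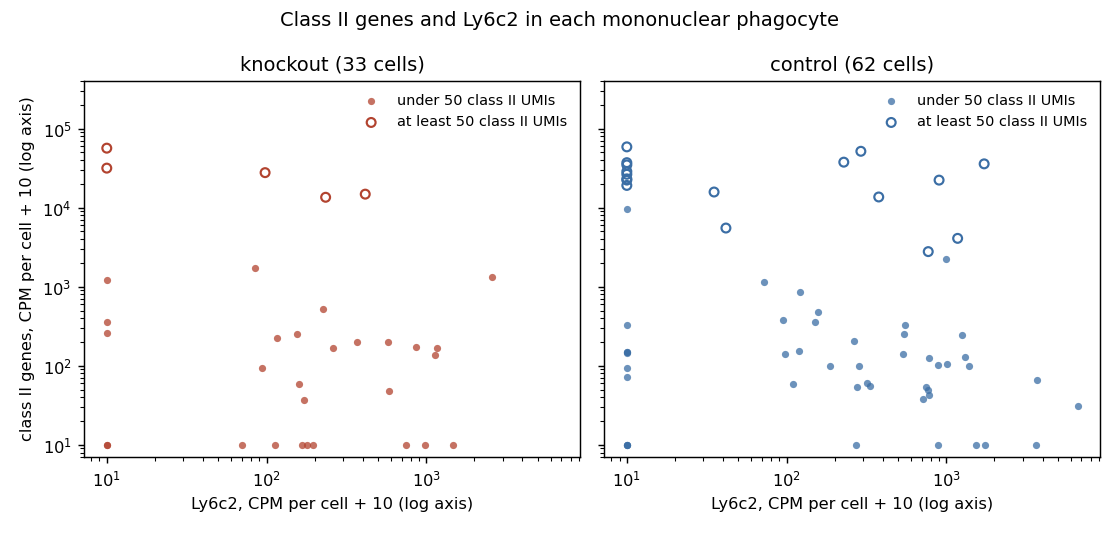
Class II RNA against Ly6c2 RNA in each cell, both as CPM per cell plus 10 on log axes, in the knockout (33 cells, left) and the control (62 cells, right), with cells of at least 50 class II UMIs marked. The 5 knockout class II-rich cells lie apart from the rest. The 17 control class II-rich cells reach down to 2773 CPM. Shallow control cells that are not marked lie near them, at 9684 CPM (2375 UMIs) and 2203 CPM (4085 UMIs).

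Apoe, the lipid carrier of macrophages and glia, differed through a few of the class II-rich control cells. It ran from 0 to 36150 CPM among the class II-rich control cells. Over all cells Apoe was at 379.9 against 3147 CPM, ratio 0.121 (0.107 to 0.136), yet the median cell was at 131 CPM in the knockout and 133 CPM in the control. The 5 control cells richest in it held 90.5% of the control's UMIs, and without the class II-rich cells the values were 372 against 374 CPM. Apoe is also abundant in Müller glia. Ccl5, which attracts T cells and monocytes, was likewise at 1166 against 2470.4 CPM, ratio 0.472 over all cells and 668 against 532 CPM outside the class II-rich cells.

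Among chemokines 8 of 17 measured genes were lower and 3 higher (median -0.30). Besides those named, Ccl7, which attracts monocytes, was at 56.9 against 187 CPM, ratio 0.305 (0.218 to 0.418), Cxcl9, an interferon-γ-induced gene that attracts T cells, at 23.5 against 58.2 CPM, ratio 0.404, and Cxcl2, which attracts neutrophils, at 1518 against 2406 CPM, ratio 0.631 (0.591 to 0.674). Cxcl10, another interferon-induced chemokine, was at 246 against 297 CPM, ratio 0.829 (0.697 to 0.982) and Ccl2, the ligand of CCR2, at 799 against 584 CPM, ratio 1.37 (1.23 to 1.52). Ccl2 was not evenly spread: Arg1-rich cells were at 1396 against 1404 CPM and the other cells at 555 against 95.1 CPM. Those other cells included the 2 knockout cells with vessel RNA. Ccl2 was at 1691 CPM in the one of 89909 UMIs and at 297 CPM in the one of 43805 UMIs. Cxcl1 was higher at 186 against 83.2 CPM, ratio 2.23, but lay below 1 without the 5 cells richest in it.

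Cytokines lay on both sides of 1. Il1b, the pyrogenic cytokine that inflammasomes release, was the most abundant at 5412 against 3889.7 CPM, ratio 1.39 (1.34 to 1.45), found in 33 of 33 knockout and 58 of 62 control cells, with medians of 5366 and 3466 CPM per cell. In Arg1-rich cells Il1b was at 9569 against 4327 CPM and in the others at 3708 against 3629 CPM, and in neutrophils it was at 9208 against 9567 CPM. Those other cells included the 3 knockout cells with vessel or blood RNA, at 22.2, 160 and 2310 CPM of Il1b. Their part in the near-equal values was not tested. Il1a, the sister cytokine that acts as an alarmin, lay the other way at 322 against 604 CPM, ratio 0.532 (0.462 to 0.612), as did Tnf at 42.1 against 93.4 CPM, ratio 0.450 and Il6 at 59.4 against 124 CPM, ratio 0.480 (0.341 to 0.662). Tgfb1 was at 465 against 347 CPM, ratio 1.34. Of 11 measured cytokine genes 3 were lower and 1 higher (Hbegf, which lay below 1 without the cells with vessel, blood or neuron RNA).

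The LPS receptors and their adaptors differed little, with 1 of 11 lower, Tlr2, the receptor of bacterial lipoproteins (118 against 192 CPM, ratio 0.612), and 0 higher. Cd14, which hands LPS to Toll-like receptor 4, was at 1289 against 1146 CPM, ratio 1.13 (1.04 to 1.22), Tlr4 itself at 44.6 against 32.5 CPM and Ly96, its MD-2 subunit, at 1.05. Of 16 NF-κB genes 1 was higher (Tnfaip2, 1.63) and 1 lower (Nfkbid, an atypical IκB, 0.397). Nfkb1, the p50 subunit, was at 639.8 against 428 CPM (1.33 to 1.68 for the ratio), just inside the bound, and Nfkbia, the IκBα feedback inhibitor, at 0.924. The inflammasome list had 5 of 14 lower and 0 higher, among them Aim2, a DNA sensor (0.466), Naip5, a flagellin sensor (0.503), Casp1, the caspase that cuts IL-1β (33.4 against 50.8 CPM, ratio 0.658), and Gsdmd, the pore it opens (37.1 against 59.6 CPM, ratio 0.623). Nlrp3 was at 1.11.

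Phagocytosis and lysosome lists held lower genes and no higher ones. Of 22 phagocytic and Fc receptors 5 were lower and 0 higher (median -0.23). Trem2, a lipid-sensing partner of Tyrobp, had 8 UMIs in the knockout and 61 in the control (ratio 0.240, 0.0991 to 0.503), and Mertk, which takes up dying cells, lay at 0.361 (17.3 against 48.1 CPM). Without the microglia-marked cells the Mertk ratio was 0.734 (0.337 to 1.51), with an interval that holds 1. The Fc receptor genes Fcgr3 (0.898) and Fcgr4 (0.898) lay near 1. Of 31 lysosome genes 5 were lower and 0 higher (median -0.24). Ctsd, an aspartic protease, was at 285 against 698 CPM, ratio 0.408 (0.352 to 0.471), Cd63, a membrane protein of late endosomes, at 52.0 against 154 CPM, ratio 0.338, Npc2, which carries cholesterol out of lysosomes, at 523 against 883 CPM, ratio 0.593 and Cd68 at 149.7 against 250.4 CPM, ratio 0.598. Gpnmb, a glycoprotein of lipid-laden macrophages, had 1 UMI in the knockout and 58 in the control. Lyz2, lysozyme, was at 3710.1 against 5354 CPM, ratio 0.693 (0.664 to 0.723). Cathepsin B (0.896), Lamp1 (0.888) and the proton pump gene Atp6v1b2 (1.05) lay near 1.

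Ferritin was lower and the metallothioneins were higher. Fth1, the ferritin heavy chain that stores iron, was at 19188 against 42164 CPM, ratio 0.455 (0.447 to 0.463). The median cell had 10252 CPM in the knockout and 26576 CPM in the control. It was below 1 in all 12 ranges of cells looked at, from 0.103 in class II-rich cells to 0.693 in Arg1-rich cells, but was alike in neutrophils, at 62294 against 63628 CPM. Ferritin light chain, Ftl1, was at 3596 against 5437 CPM, ratio 0.661. The metallothioneins, which bind zinc and copper, lay the other way, with Mt1 at 431 against 164 CPM, ratio 2.63 (2.23 to 3.11) and Mt2 at 111 against 19.0 CPM, ratio 5.88 (3.81 to 9.33). Mt1 was also higher in neutrophils (496 against 225 CPM) and in Müller glia (29958 against 14875 CPM). With an estimated free RNA share taken away, a share set from rod genes, Mt1 was at 411 against 155 CPM and Mt2 at 104 against 15.3 CPM in the mononuclear phagocytes. Without the cells with vessel, blood or neuron RNA, the Mt1 ratio was 2.65 (2.22 to 3.16) and the Mt2 ratio 3.22 (1.87 to 5.64). Of 24 genes of the oxidative burst, antioxidants and iron 3 were higher and 3 lower.

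Saa3, an acute-phase protein of inflamed macrophages, depended on how cells were summed. Its summed level was 8107 against 13361 CPM, ratio 0.607 (0.590 to 0.624), in 32 of 33 knockout and 49 of 62 control cells. The median cell, though, had 5762 CPM in the knockout and 2057 CPM in the control, and the 5 richest cells held 42.8% and 49.5% of its UMIs.

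**Figure D5:**
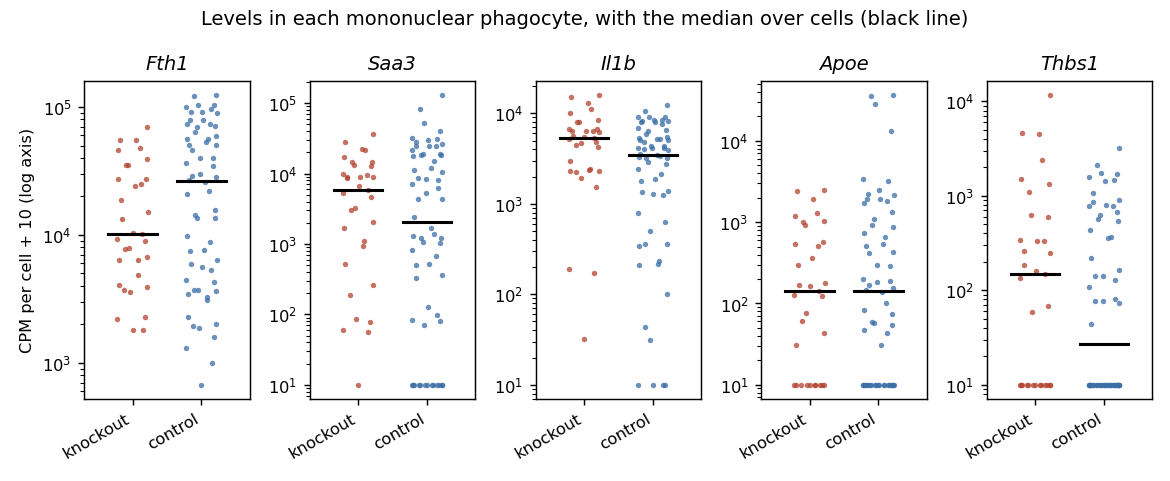
CPM per cell plus 10 on log axes for Fth1, Saa3, Il1b, Apoe and Thbs1 in each knockout cell (left) and control cell (right), with the median over cells as a black line. The median of Fth1 is lower in the knockout while the cells overlap, the highest Apoe cells are control and the highest Thbs1 cells knockout, and the Saa3 medians lie opposite to its sums.

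Arginine, itaconate and prostaglandin genes lay on both sides, with 2 of 11 higher and 3 lower. Arg1 was at 1088 against 1248 CPM, ratio 0.872 (0.803 to 0.945) and Acod1, which makes the antimicrobial metabolite itaconate, at 657 against 553 CPM, ratio 1.19, both between the bounds. Slc7a2, the transporter that brings arginine into macrophages, was at 38.4 against 243 CPM, ratio 0.158 (0.106 to 0.228), with 31 UMIs in 10 knockout cells and 359 in 20 control cells. Müller glia also express it, at 38.7 against 63.8 CPM. Ptges, which makes prostaglandin E2, was at 44.6 against 172 CPM, ratio 0.259 (0.177 to 0.368) and Ptgs2, the cyclooxygenase before it, at 167 against 307 CPM, ratio 0.544 (0.445 to 0.660). Both were near 1 or above in neutrophils, at ratios of 0.987 and 1.15. Chil3, a chitinase-like protein of monocytes, was higher at 921 against 469.7 CPM, ratio 1.96 (1.77 to 2.18), and at 754 against 581 CPM without the microglia-marked cells.

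Matrix genes went both ways, with 4 of 18 higher and 7 lower. Fn1, fibronectin, was at 703 against 379.7 CPM, ratio 1.85 (1.64 to 2.08), and Thbs1, an adhesive glycoprotein, at 882 against 348 CPM, ratio 2.54, but 1 knockout cell held 42.1% of the knockout's Thbs1 UMIs and the ratio was 0.900 without the 5 richest cells. Timp1, an inhibitor of metalloproteinases, was at 222 against 521 CPM, ratio 0.425 (0.359 to 0.501). Spp1, osteopontin, was at 115 against 278 CPM, and 1 knockout cell held 94.6% of the knockout's UMIs. In the control 1 cell held 63.0% of the UMIs and the 5 richest held 97.3%. Glycolysis genes hardly differed (1 of 19 higher, 1 lower), with Gapdh at 0.986.

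Early response and heat shock genes included 6 of 21 higher and 0 lower, among them Egr1 at 374 against 135 CPM, ratio 2.77 and Fosl2 at 213 against 111 CPM, ratio 1.92. In the same cells 8 endothelial genes summed to 1234 CPM in the knockout and 502 CPM in the control. Without the 3 knockout and 2 control cells with vessel, blood or neuron RNA, the count was 1 higher and 6 lower. The ratios of Egr1 and Fosl2 above include these cells and were not looked at one by one without them.

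Transcription factor genes of myeloid cells included 3 higher and 4 lower of 26, the lower ones being Irf1, Irf2, Irf8 and Maf. Maf, which maintains macrophage identity, was at 197 against 434 CPM, ratio 0.454 (0.379 to 0.540), while Spi1, the PU.1 master factor, was at 1.06. Batf, an AP-1 family factor, was higher at 94.1 against 46.7 CPM, ratio 2.01 (1.43 to 2.83). Maf was mostly an Arg1-rich cell gene, at 515 against 937 CPM in those cells and 66.3 against 134 CPM in the others.

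Atg5, the gene floxed in both groups, encodes a protein of autophagosome membrane conjugation. It had 8 UMIs in 8 of 33 knockout cells and 51 UMIs in 31 of 62 control cells, or 9.90 against 34.5 CPM with a ratio of 0.287 (0.118 to 0.609). In Müller glia, where the Cre acts, it had 148 UMIs in the knockout and 108 in the control (ratio 0.929), and in neutrophils it was at 15.1 against 25.4 CPM. Reads of a 3′ library lie at the end of the transcript and can be made from a recombined allele, so these values check neither the deletion nor the labels. Slc1a3, the gene whose promoter drives the Cre, had 3 UMIs in the knockout cells and 2 in the control cells. The other autophagy genes differed little: over the list of 24 measured genes, Atg5 included, 1 was higher and 3 lower (median 0.07). Atg7, the enzyme that activates the conjugation, was at 0.583, Map1lc3b, an LC3 protein, at 0.865 and the receptor gene Sqstm1 (p62) at 1.25.

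At the ends of the range, among the 3541 genes eligible to be named, the 12 highest ratios rested mostly on few cells. Pglyrp1, an antibacterial protein of neutrophil granules, was at 121 against 17.6 CPM, ratio 6.89 (4.43 to 11.1), with 95.9% of its knockout UMIs in 5 cells. Among the others were Ets1, Nup210l, Srm, Ints6, Cdc42ep3, Alkbh1, Ear2, Lsr, Timm8a1 and Edn1, at ratios from 2.55 to 4.25. Of these, Alkbh1, a DNA and RNA demethylase, was the most evenly spread, with UMIs in 19 and 20 cells (52.0 against 17.6 CPM). Ear2, an eosinophil-associated ribonuclease known in mice from non-classical monocytes, was at 53.2 against 19.0 CPM, ratio 2.81.

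The 12 lowest ratios included immune genes, some found in many control cells, such as Ifi206, and some in fewer, such as Cst7. Cst7, an inhibitor of cathepsins, had 1 UMI in the knockout and 110 in 13 control cells. Inhba, the activin A subunit, was at 16.1 against 189.5 CPM, ratio 0.0849 (0.0446 to 0.148), and AW112010, an interferon-responsive transcript, at 53.2 against 383 CPM, ratio 0.139 (0.0994 to 0.190). Ifi206, of the AIM2-like family, was at 18.6 against 79.9 CPM, ratio 0.232 (0.126 to 0.399) in 10 and 35 cells, and Ly6i, an interferon-inducible member of the Ly6 family, at 42.1 against 179 CPM, ratio 0.235. Hvcn1, the voltage-gated proton channel that sustains the oxidative burst, had 5 and 57 UMIs. Cyp4v3, Tagap and Lhfpl2 were at 0.169, 0.189 and 0.192, and Apoe, Slc7a2 and Trem2 are given above.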

How the data were processed

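The study deposited 1 matrix of raw UMI counts per library, with genes and barcodes, made by the authors with Cell Ranger 6.0.0 on mm10 per the submitters' processing notes, which also name Seurat 5.2.1. Cell types are not given in the files used here, so cells were chosen by rule with Python 3.11.15 and pandas 2.3.3. The counts of the chosen cells were summed per library and given as CPM, with exact Poisson intervals for levels, exact conditional binomial intervals for ratios and Clopper-Pearson intervals for shares (scipy 1.17.1). Log2 ratios have 0.5 UMI added. Genes needed at least 50 UMIs, and lists were described by counts past 1.5-fold and medians. The script for ratios was tested on simulated data. No doublet caller was run. Cells, lists and ranges were chosen with earlier results of these data known. Genes were named by rule: among 3541 eligible genes the 12 highest and 12 lowest ratios, the extremes and 2 most abundant of each list, the 10 largest folds over neutrophils, and markers; Treml4, Stat2, Oas3 and further genes of the lists were chosen after their values were seen. Neutrophils had at least 5 UMIs of Csf3r, Cxcr2 and Retnlg and 20 of S100a8 and S100a9, and Müller glia at least 0.3% of UMIs from their 5 genes. Some genes are not reported here.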

Additional observations from a re-analysis of the deposited data

Results flagged for a closer look

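Only genes named by rule and genes of the gene and marker lists were looked at here, not all measured genes. Some had been named for their extreme ratios in these cells, so the count below is not a share of all genes. Among them, 164 had at least 50 UMIs in both cell types and intervals that leave out 1 in both. Of these, 14 lay at least 1.5-fold one way in the mononuclear phagocytes and at least 1.5-fold the other way in neutrophils of the same libraries. The difference between the cell types was not tested. Higher in knockout mononuclear phagocytes and lower in knockout neutrophils were Treml4 (2.02 and 0.598), Batf (2.01 and 0.627), Fn1 (1.85 and 0.467), Tnfaip2 (1.63 and 0.508), Icam1 (1.68 and 0.533) and Cdc42ep3 (3.08 and 0.514). The vessel genes Cldn5 (3.41 and 0.574), Egfl7 (3.1 and 0.623) and Flt1 (2.60 and 0.310) lay the same way, but 668 of 670 knockout UMIs and 429 of 443 control UMIs of the 4 vessel genes were in 2 knockout cells and 1 control cell. Without the cells with vessel, blood or neuron RNA, Cldn5 had 0 UMIs in the knockout and 0 in the control, Egfl7 had 1 and 2, and Flt1 had 0 and 9, too few to compare. Without them Icam1 was at 1.13, with an interval that holds 1, and Cdc42ep3 at 0.390 (0.0977 to 1.15), while Treml4, Batf, Fn1 and Tnfaip2 lay between 1.76 (Tnfaip2) and 2.30 (Batf). Lower in knockout mononuclear phagocytes and higher in knockout neutrophils were Inhba (0.0849 and 1.54), Lhfpl2 (0.192 and 1.81), Serpinb2, a protease inhibitor of activated macrophages (0.211 and 7.27), Timp1 (0.425 and 2.48) and Maf (0.454 and 3.97). The neutrophil rule set no limit on macrophage genes. With at least 5 neutrophil gene UMIs, 12 knockout and 31 control cells met the rest of the phagocyte rule. Arg1 had 177 UMIs in 3 of 138 knockout neutrophils and 54 in 6 of 176 control neutrophils. The part of such cells in the neutrophil ratios was not tested.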

How the results depend on the processing

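No paired analysis was possible because each group is 1 library. The type I interferon list kept 14 to 17 lower genes under the alternatives that leave its genes measured, and with cells thinned to 2000 UMIs 1 of 7 measured genes was lower. Interferon-induced GTPases had 2 lower without microglia-marked cells, and 8 with at least 20 UMIs or at least 1 UMI. Class II genes had 2 lower when thinned, 3 without microglia-marked cells and 1 without class II-rich cells. Class I genes had 0 when thinned and 2 without class II-rich cells. Early response genes had 3 higher by the mean of per-cell CPM, 0 when thinned and 1 without cells with vessel, blood or neuron RNA. With a minimum of 1 UMI 52.7% of genes were past the fold, and when thinned 6 lists had more lower than higher genes. Microglia-marked shares were 0% in both libraries when thinned to 2000 UMIs and 5.36% in the control when thinned to 10000. Of 146 named genes with at least 50 UMIs, 21 turned to the other side of 1 under some alternative, and the cause was not tested. Without the 5 cells with most of the gene these were Cdc42ep3 (0.453), Cxcl1 (0.218), Erap1 (0.897), Hbegf (0), Icam1 (0.991), Ifi205 (0.774), Lsr (0.704), Map1lc3a (0.896), Slc2a1 (0.764) and Thbs1 (0.900). Thinned to 2000 UMIs they were Aim2 (1.32), Cxcl1 (0.867), Erap1 (0.939), Gbp2 (1.01), Gbp7 (1.34), Map1lc3a (0.376), Slc2a1 (0.537), Srm (0), Tlr2 (1.02), Tmem119 (1.88) and Vcan (1.5). Ccl5 was at 1.07 without cells rich in other types' RNA. Without class II-rich cells Ccl5 (1.26), H2-Aa (1.56), H2-Ab1 (1.27) and Tmem119 (1.05) lay above 1. Without cells with vessel, blood or neuron RNA Cdc42ep3 (0.390), Ch25h (0.894), Cxcl1 (0.466), Hbegf (0.975), Lsr (0.883) and Slc2a1 (0.858) lay below 1. Thinning to 10000 UMIs and leaving out class II-rich cells or those with vessel, blood or neuron RNA were chosen after seeing the data. Counts of 33 and 62 cells limit every share, and 1 library per group leaves the spread between mice unknown.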

Other observations

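The genes that set the mononuclear phagocytes furthest apart from neutrophils of the same libraries included, besides the class II genes and Ccl5, Ifi30, a lysosomal thiol reductase that prepares antigens (592 against 503 CPM here and 35.7 against 28.0 CPM in neutrophils), the scavenger receptor gene Msr1 (402 against 444 CPM and 32.9 against 15.0 CPM) and the membrane protein genes Ms4a6c and Ms4a6d (419.5 against 517 CPM and 25.4 against 52.4 CPM for the second). Each pair of values is knockout against control, and with cells chosen by their RNA they describe the choice.

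Proliferation genes were found in few cells. Top2a, a topoisomerase of dividing cells, had 4 UMIs in 2 knockout cells and 89 in 2 control cells. Ube2c, which acts at the exit from mitosis, had 0 UMIs in the knockout and 53 in the control. By UMI counting alone that is at least 9.66-fold lower, against a floor of 3 UMIs. Such a bound does not cover how many dividing cells each library caught. S100 proteins, galectins and annexins had 2 of 14 lower and 0 higher, with S100a4 at 1293 against 1208 CPM, ratio 1.07 and Anxa1, a mediator that limits neutrophil entry, at 58.2 against 113 CPM, ratio 0.515. Among receptors for chemoattractants and adhesion molecules 5 of 21 were lower and 1 higher, with the integrin gene Itgax at 0.601 and Selplg, the ligand that starts rolling on vessel walls, at 90.3 against 164 CPM, ratio 0.552. Complement genes beside C1q included Cfb at 426 against 675 CPM, ratio 0.630 and C3 at 105 against 176 CPM, ratio 0.598, both lower, while C1qb was at 480.2 against 412 CPM, ratio 1.16.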
